A study of Mus musculus with 9 samples.

Results

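B cells recognise antigen through a surface immunoglobulin that signals only together with the CD79A and CD79B chains, and they mature into plasma cells that lose most surface markers while secreting antibody. In solid tumors both cell types are found as scattered infiltrate or in lymphoid aggregates, and their transcripts are read in bulk tissue RNA as a small share of all reads. The genes described here are 9 mouse genes of these 2 cell types, taken by symbol from a table of 19481 genes: the receptor chains Cd79a and Cd79b; the surface proteins Ms4a1 (CD20), Cd22 and Cr2 (complement receptor 2); the cytoplasmic proteins Blk (a Src-family kinase) and Fcrla (an Fc receptor-like protein that stays inside the cell); the transcriptional coactivator Pou2af1; and Mzb1, an endoplasmic reticulum chaperone needed for antibody secretion. All 9 were present in the table.

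The tumors were allografts of KLN205, a lung squamous cell carcinoma line of DBA/2 mice, grown under the skin of immunocompetent female DBA/2 wild-type mice that were 6 to 8 weeks old at injection. The injected cells carried a SMART doxycycline-inducible short hairpin RNA: a scrambled hairpin (shControl) or 1 of 2 hairpins against the serine protease gene Tmprss11b (sh2 and sh3), with 3 tumors in each of the 3 groups. Every mouse, controls included, drank doxycycline from a mean tumor volume of 100 mm3 until the tumors were resected on day 50. The hairpin was carried by the carcinoma cells alone, whereas B cells and plasma cells belong to the host, so the comparison asks whether host B lineage RNA differed between tumors whose carcinoma cells carried different hairpins. Poly-A RNA from a piece of each whole tumor was sequenced, with total gene counts of 20653219 to 24047784 per tumor. In such bulk samples fewer cells of a type and less RNA per cell cannot be told apart.

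The hairpin target was read first as a check of the labels. Tmprss11b, listed under its older symbol Tmprss11bnl, had 18, 51 and 42 counts in the shControl tumors, 7, 2 and 5 in the sh2 tumors and 10, 4 and 5 in the sh3 tumors, so that neither knockdown group overlapped the controls. Across all genes, edgeR's quasi-likelihood test called 0 of 14725 (0.0%) at a false discovery rate (FDR, the Benjamini-Hochberg adjusted p-value) under 0.05 in each of the comparisons, while an unadjusted p under 0.05 was reached by 518 genes for sh2 against shControl, 976 for sh3 against shControl, 602 for the mean of both hairpins against shControl and 1057 for sh3 against sh2. The DESeq2 Wald test called 2, 41, 9 and 48 genes in these comparisons and edgeR's likelihood ratio test 0, 8, 8 and 14, with no member among them. One tumor in each knockdown group stood apart in leukocyte RNA: the normalised counts per 1000000 (CPM) of Ptprc, which encodes the pan-leukocyte protein CD45, were 97.9 in sh2 replicate 2 and 93.2 in sh3 replicate 1, against 143 to 251 in the other tumors. Results that rest on these tumors are given with and without them.

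In sh3 tumors, the levels of Cd79a, Cd22 and Pou2af1 exceeded those of every control tumor. The promoters of these 3 genes are shown because they are the members for which the groups separated. They are RefSeq sequences of build GRCm38.p6, 250 bases before to 50 bases after the gene start, written 5′ to 3′ on the strand of the gene, and capitals mark matches to letters that lymphoid transcription factors are known to bind. Cd79a is on chr7:24897497-24901858 (plus strand) and its promoter is chr7:24897247-24897546. Pou2af1 is on chr9:51213690-51240079 (plus strand), with its promoter at chr9:51213440-51213739. Cd22 is on chr7:30865404-30880342 (minus strand), and its promoter, chr7:30878979-30879278, belongs to a start that lies within that span.
Cd79a: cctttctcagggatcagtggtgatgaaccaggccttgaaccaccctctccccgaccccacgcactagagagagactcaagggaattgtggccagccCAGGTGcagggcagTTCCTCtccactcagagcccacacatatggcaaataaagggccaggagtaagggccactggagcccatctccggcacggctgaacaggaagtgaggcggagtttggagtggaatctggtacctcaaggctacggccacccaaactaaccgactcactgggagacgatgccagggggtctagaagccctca
Pou2af1: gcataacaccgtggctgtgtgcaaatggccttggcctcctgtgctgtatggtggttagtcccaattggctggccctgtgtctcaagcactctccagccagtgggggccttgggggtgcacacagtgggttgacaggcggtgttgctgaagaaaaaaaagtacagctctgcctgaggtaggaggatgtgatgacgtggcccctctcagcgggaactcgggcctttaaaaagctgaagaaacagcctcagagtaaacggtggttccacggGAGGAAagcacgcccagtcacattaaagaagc
Cd22: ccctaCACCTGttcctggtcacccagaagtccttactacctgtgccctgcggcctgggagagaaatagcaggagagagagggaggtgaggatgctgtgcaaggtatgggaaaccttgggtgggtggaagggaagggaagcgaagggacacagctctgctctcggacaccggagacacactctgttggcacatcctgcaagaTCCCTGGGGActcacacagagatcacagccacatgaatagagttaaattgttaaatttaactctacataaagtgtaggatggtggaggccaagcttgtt

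The letters were searched on both strands, and no match overlapped another. The E box CAGGTG, a site of E2A-type factors, was found in the Cd79a promoter (154 bases before the start) and, on the other strand, in that of Cd22; it was in 4 of the 5 member promoters searched (those shown, Fcrla and Cr2), and 20.2% of all 32851 promoters of this length hold it. The PU box GAGGAA was present in the promoters of Cd79a and Pou2af1, in 3 of the 5 member promoters and in 28.3% of all promoters. The EBF motif, searched as TCCC and GGGA with any 2 bases between them, occurred in the Cd22 promoter as TCCCTGGGGA, 49 bases before the start, in 1 of the 5 and in 0.904% of all promoters. The octamer ATGCAAAT, the site at which POU2AF1 acts with its partners, was in none of the 5 and in 1.74% of all. These matches describe letters only. The remaining members lie on chr11:106311341-106314562 (Cd79b), chr19:11249679-11266149 (Ms4a1), chr14:63372837-63417187 (Blk), chr1:170917594-170932216 (Fcrla), chr1:195136811-195176880 (Cr2) and chromosome 18 (Mzb1).

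The 9 genes were expressed at low levels. On the length-corrected scale of TPM (transcripts per 1000000), as deposited, Cd79b had the highest mean over the 9 tumors (11.7 ± 4.26, SD, n = 9), followed by Mzb1 (4.78 ± 3.95), Cd79a (2.12 ± 1.29), Pou2af1 (1.69 ± 1.06), Ms4a1 (1.57 ± 1.36), Fcrla (1.4 ± 0.565), Cd22 (0.582 ± 0.233), Blk (0.524 ± 0.388) and Cr2 (0.0449 ± 0.034). Neighbours in this order from Mzb1 to Fcrla, and Cd22 and Blk, differed by less than the larger of their SDs. Mean TPM placed the members between the 10.6th percentile (Cr2) and the 50.5th percentile (Cd79b) of all listed genes. Summed over the 9 genes, 81 to 669 reads per tumor were counted, which is 3.75 to 32.4 reads per 1000000 counted. A count of 3 corresponds to 0.123 to 0.152 CPM at these depths, and Cr2 was at or under 3 counts in 6 of 9 tumors.

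**Figure D1:**
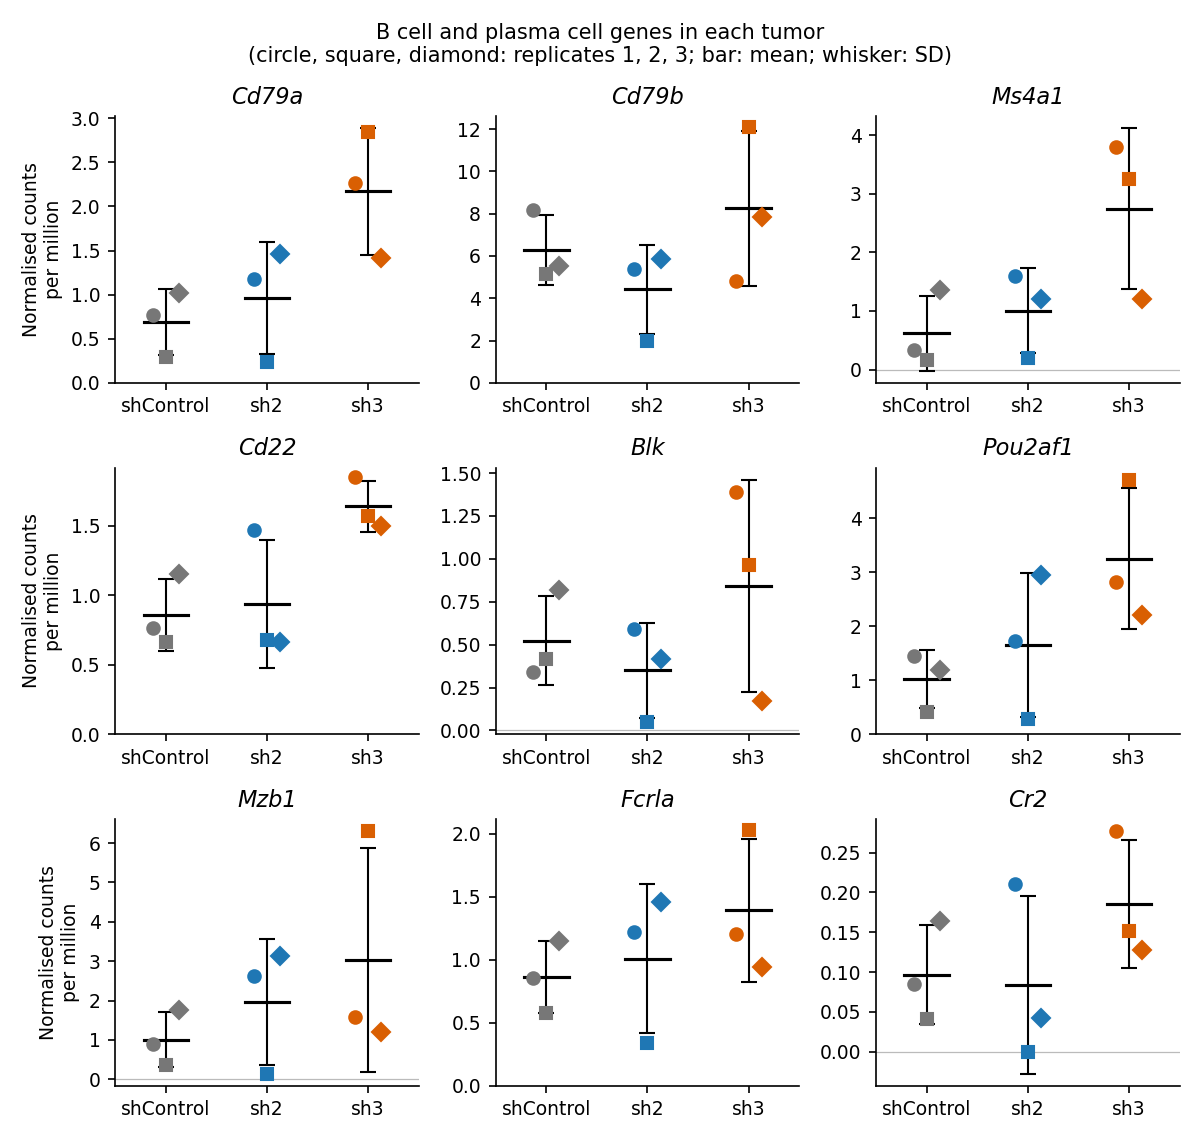
Normalised level (CPM, y axis, on a separate linear scale for each gene) of the 9 genes in the 3 shControl, 3 sh2 and 3 sh3 tumors; points are tumors, bars are group means and whiskers are SD. The sh3 points lie above all shControl points for Cd79a (1.41 to 2.84 against 0.29 to 1.02 CPM), Cd22 and Pou2af1, and sh2 replicate 2 (blue square) is the lowest tumor for 7 of the 9 genes.

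Of the receptor chains, Cd79a had 18, 7 and 25 counts in the control tumors, 28, 5 and 35 in the sh2 tumors and 49, 56 and 33 in the sh3 tumors. In CPM this was 0.766, 0.29 and 1.02 for shControl, 1.18, 0.241 and 1.46 for sh2, and 2.26, 2.84 and 1.41 for sh3. All sh3 tumors were above all controls, whereas the sh2 tumors lay on both sides of them. The fitted difference between sh3 and shControl was 1.64 log2 units (SE 0.67), a 3.11-fold difference, with an unadjusted p of 0.0367 and an FDR of 0.753 in edgeR's quasi-likelihood test. The exact two-sided permutation p was 0.1, the smallest that 3 tumors against 3 can give. For sh2 against shControl the difference was 0.47 (SE 0.67, FDR 0.999).

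Cd79b, the other chain, behaved differently among tumors. Its level was 8.17, 5.17 and 5.52 CPM in shControl, 5.39, 1.98 and 5.88 CPM in sh2, and 4.81, 12.1 and 7.83 CPM in sh3. The groups overlapped throughout, and the differences were -0.51 (SE 0.46) for sh2 and 0.39 (SE 0.46) for sh3 against shControl on the log2 scale, with FDRs of 0.999 and 0.891. Although the 2 chains form a heterodimer, the ratio of Cd79b TPM to Cd79a TPM ranged from 2.35 in sh3 replicate 1 to 19.8 in shControl replicate 2. It was 5.98 to 19.8 in the control tumors, 4.46 to 9.08 in the sh2 tumors and 2.35 to 6.14 in the sh3 tumors, so that the sh3 range overlapped the controls at its upper end. Cd79b supplied 24.1% to 63.8% of the summed member CPM per tumor.

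Among the surface proteins, Ms4a1 encodes CD20, which is present on B cells and absent from plasma cells. It had 8, 4 and 33 counts in shControl tumors (0.34, 0.166 and 1.35 CPM), 38, 4 and 29 in sh2 tumors (1.6, 0.193 and 1.21 CPM) and 82, 64 and 28 in sh3 tumors (3.79, 3.25 and 1.2 CPM). Replicates 1 and 2 of sh3 were above all other tumors, but sh3 replicate 3 was below shControl replicate 3. The sh3 difference was the largest among the members, 2.14 log2 units (SE 0.90, 4.39-fold, unadjusted p = 0.0407, FDR 0.753, edgeR quasi-likelihood test). The exact permutation p was 0.2. Leaving out shControl replicate 3 gave 3.40 and leaving out shControl replicate 2 gave 1.68.

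Cd22, an inhibitory receptor that binds sialic acids and damps B cell receptor signals, had the narrowest spread. Its level was 0.766, 0.662 and 1.15 CPM in shControl, 1.47, 0.676 and 0.667 CPM in sh2, and 1.85, 1.57 and 1.5 CPM in sh3. The 3 sh3 tumors were the 3 highest of all 9, above both other groups. The sh3 difference was 0.93 log2 units (SE 0.43, 1.9-fold, unadjusted p = 0.0575, FDR 0.76) against shControl and 0.80 (SE 0.43, unadjusted p = 0.0937, FDR 0.682) against sh2, in the same edgeR fit. The exact permutation p was 0.1 in each case.

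Cr2, the receptor for complement fragments on mature and follicular B cells and on follicular dendritic cells, was close to the limit of counting. It had 2, 1 and 4 counts in shControl, 5, 0 and 1 in sh2, and 6, 3 and 3 in sh3. It did not pass the filter on low counts and has no value in the main test. A fit without that filter gave 0.90 log2 units (SE 0.97) for sh3 against shControl, and no difference was detectable at this depth.

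Of the intracellular signaling proteins, Blk was lowest in sh2 replicate 2 (1 count, 0.0483 CPM) and highest in sh3 replicate 1 (30 counts, 1.39 CPM). Its levels were 0.34, 0.414 and 0.818 CPM in shControl, 0.59, 0.0483 and 0.417 CPM in sh2, and 1.39, 0.965 and 0.171 CPM in sh3. The sh3 tumors therefore spanned a range wider than that of the controls, and the difference of 0.67 log2 units (SE 0.84, FDR 0.895) was 0.09 without sh3 replicate 1. Fcrla had levels of 0.851, 0.579 and 1.15 CPM in shControl, 1.22, 0.338 and 1.46 CPM in sh2, and 1.2, 2.03 and 0.941 CPM in sh3. These overlapped, with a sh3 difference of 0.69 (SE 0.57, FDR 0.835).

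Pou2af1, the coactivator that B cells require for germinal centre formation and that plasma cells also express, had 34, 10 and 29 counts in shControl, 41, 6 and 71 in sh2, and 61, 93 and 52 in sh3. In CPM these were 1.45, 0.414 and 1.19 for shControl, 1.73, 0.29 and 2.96 for sh2, and 2.82, 4.72 and 2.22 for sh3. The sh3 tumors were above all controls, and so were sh2 replicates 1 and 3, while sh2 replicate 2 was the lowest of all. The differences against shControl were 1.67 log2 units for sh3 (SE 0.75, 3.19-fold, unadjusted p = 0.0534, FDR 0.757) and 0.71 for sh2 (SE 0.75, FDR 0.999) in edgeR's quasi-likelihood test. Without sh2 replicate 2 the sh2 difference was 1.21, and without sh2 replicate 3 it was 0.02.

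Mzb1 had the widest range of the members tested, 43.5-fold between sh2 replicate 2 (3 counts) and sh3 replicate 2 (124 counts). It was 0.894, 0.372 and 1.76 CPM in shControl, 2.61, 0.145 and 3.13 CPM in sh2, and 1.57, 6.3 and 1.2 CPM in sh3. Only sh3 replicate 2 exceeded all controls in its group, whereas sh2 replicates 1 and 3 did so in theirs. The sh3 difference of 1.57 log2 units (SE 1.01, FDR 0.8) rested on that tumor, being 0.45 without sh3 replicate 2.

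**Figure D2:**
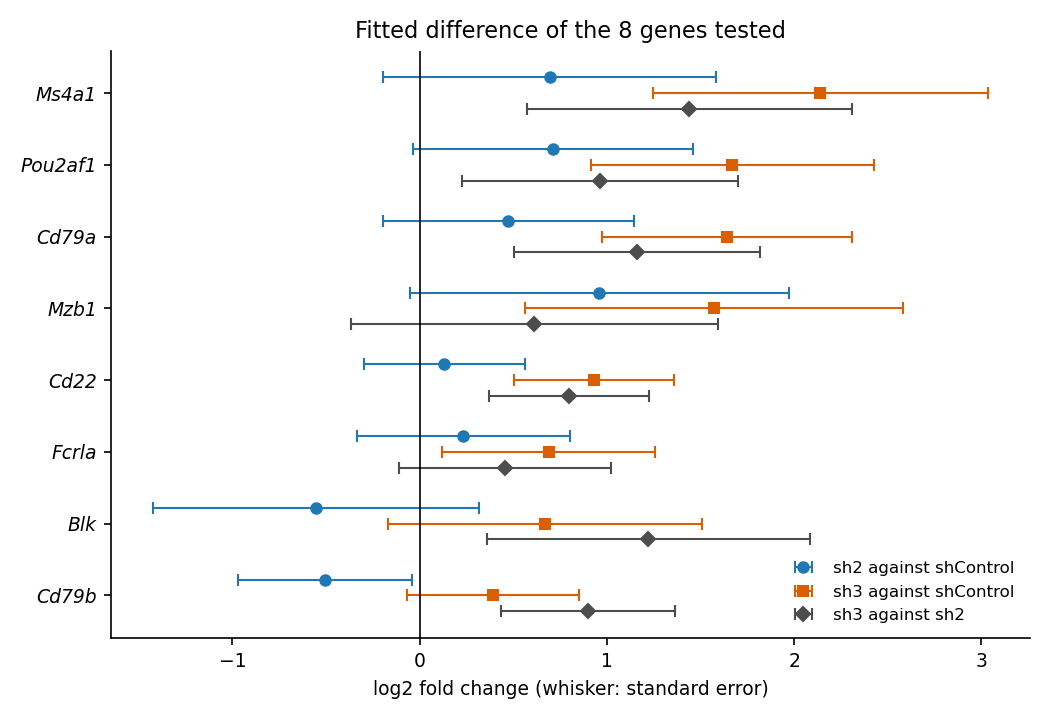
Fitted log2 fold change (x axis) with its standard error (whiskers) for the 8 genes tested, in sh2 against shControl, sh3 against shControl and sh3 against sh2, ordered by the sh3 difference. The 8 sh3 differences run from 0.39 (Cd79b) to 2.14 (Ms4a1), the sh2 differences lie on both sides of 0, and no difference has an FDR under 0.05.

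Read as a group, 8 of the 9 genes passed the low-count filter, and in each of the 4 comparisons the FDR was above the threshold for all 8. For sh3 against shControl, 8 of 8 had a positive fitted difference (54.9% of all genes tested were positive) with a median of 1.25 log2 units (0.03 over all genes). Cd79a and Ms4a1 (2 of 8) reached an unadjusted p under 0.05 in the positive direction, against a background of 3.5%, and 3 of the 8 had sh3 tumors all above the controls, against 6.78% of all genes. For sh2 against shControl, 6 of 8 were positive (background 51.8%), the median was 0.35 (0.01 over all genes), 0 had an unadjusted p under 0.05 in the positive direction (background 1.64%) and 0 had sh2 tumors all above the controls (background 5.58%). The mean of both hairpins against shControl gave 7 of 8 positive (background 55.0%), a median of 0.79, 0 at an unadjusted p under 0.05 in the positive direction (background 1.35%) and 0 without overlap in the higher direction (background 1.22%). In the direct comparison of sh3 with sh2, 8 of 8 were positive (background 54.9%) with a median of 0.93, 0 reached an unadjusted p under 0.05 in the positive direction (background 3.52%) and only Cd22 had all sh3 tumors above all sh2 tumors (background 5.52%). The comparisons of sh2 and of sh3 with shControl share the 3 control tumors.

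Several of these counts depended on single tumors. Without sh2 replicate 2, in which leukocyte RNA was low, 4 of 8 genes (Cd79a, Pou2af1, Mzb1 and Fcrla) had both remaining sh2 tumors above all controls, where 8.65% of all genes did, and the sh2 median was 0.79; for the mean of both hairpins the count went from 0 to 2 (Cd79a and Pou2af1, background 1.58%). Without sh2 replicate 3 the sh2 median was 0.04, close to that of all genes, and 3 genes (Cd79a, Cd22 and Pou2af1) had all sh3 tumors above the remaining sh2 tumors (background 8.0%). Without sh3 replicate 1, the other tumor with low leukocyte RNA, Cd79a, Cd22 and Pou2af1 were still above all controls in the sh3 group (background 19.8%) and the sh3 median was 1.22. Without sh3 replicate 2 the same 3 genes remained (background 12.7%) and the median was 0.76. Without shControl replicate 3, in which 7 of the 9 members had their highest control level, 6 of 8 genes were above the remaining controls (background 9.26%). Without sh3 replicate 3, 6 of 8 genes were above all controls in the sh3 group (background 10.5%) and 4 (Cd79a, Ms4a1, Cd22 and Blk) were above all sh2 tumors (background 9.09%), and without sh3 replicate 1, Cd79b and Cd22 were above all sh2 tumors (background 19.2%).

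Member levels were also set against leukocyte RNA. The summed level of the 8 members other than Cd79b was 5.49, 2.94 and 8.59 CPM in shControl, 10.6, 1.93 and 11.3 CPM in sh2, and 15.2, 21.8 and 8.77 CPM in sh3. Per 1000 CPM of Ptprc this was 32.1, 13.4 and 37.8 in shControl, 46.2, 19.7 and 79.5 in sh2, and 163, 88.0 and 34.9 in sh3. The highest ratio was thus in sh3 replicate 1, the tumor with the least Ptprc, and the lowest in shControl replicate 2, while sh3 replicate 3 was within the control range. Across the pan-leukocyte list of 8 genes, the summed level was 1110 to 1160 CPM in shControl, 765 to 1170 CPM in sh2 and 629 to 1760 CPM in sh3.

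The members were highest in 2 tumors, both of the sh3 group, and B cell genes were found in each set. Ms4a1, Cd22, Blk and Cr2 were highest in sh3 replicate 1, whereas Cd79a, Cd79b, Fcrla, Pou2af1 and the secretory gene Mzb1 were highest in sh3 replicate 2, as were Spib, Bank1 and Cxcr5 of the wider B cell list. In sh3 replicate 1, Mzb1 was in the middle of its range (1.57 CPM), and Igj, the joining chain of secreted IgM and IgA (now named Jchain), had 9.34 CPM, below 6 of the other tumors. Igj was highest in sh2 replicate 3 (67.4 CPM) and sh3 replicate 2 (64.3 CPM), and its remaining levels were 20.7, 2.81 and 23.4 CPM in shControl, 37.2 and 1.3 CPM in sh2 replicates 1 and 2, and 22.1 CPM in sh3 replicate 3. The ratio of Mzb1 TPM to Ms4a1 TPM was 5.96, 5.11 and 2.96 in shControl, 3.7, 1.7 and 5.87 in sh2, and 0.941, 4.4 and 2.27 in sh3. The groups overlapped in this ratio, and only sh3 replicate 1 had more Ms4a1 than Mzb1 RNA on the TPM scale.

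**Figure D3:**
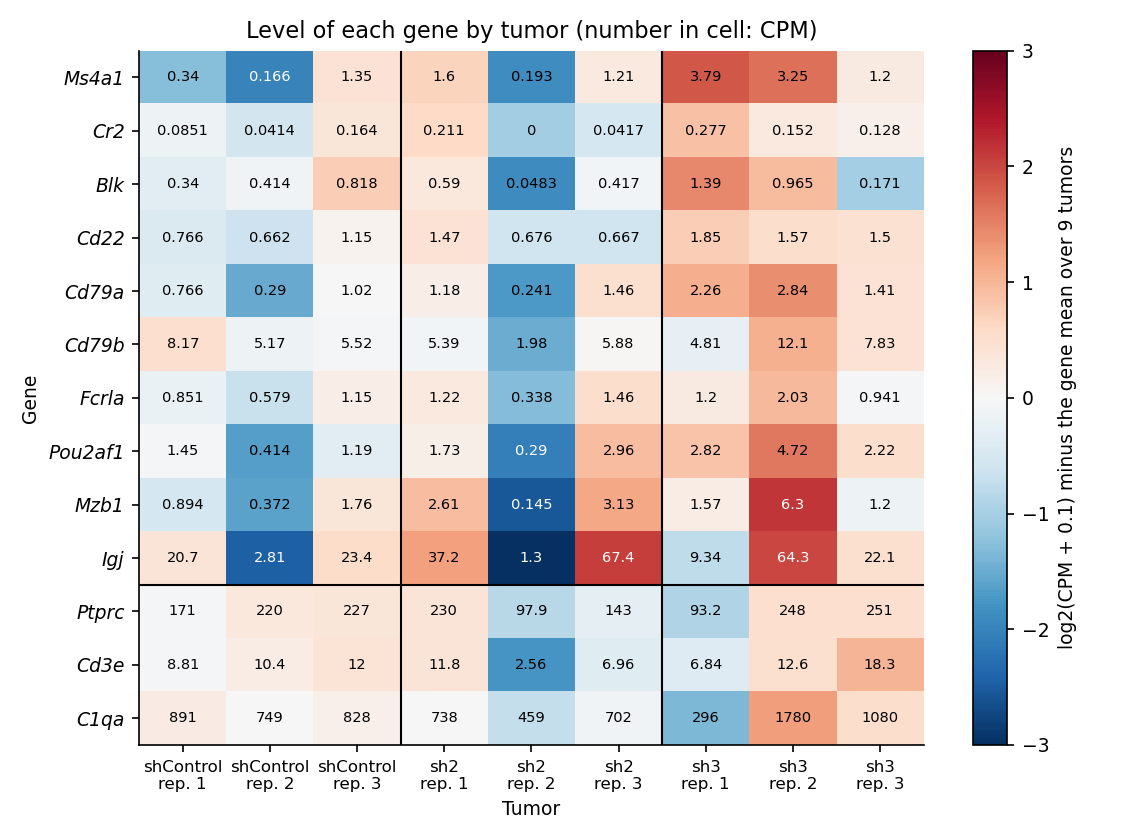
Level of the 9 members and of Igj, and (below the line) of the leukocyte gene Ptprc, the T cell gene Cd3e and the macrophage gene C1qa in each of the 9 tumors (columns); numbers are CPM and colours give log2(CPM + 0.1) minus the mean of the gene over the tumors. Rows run from B cell genes at the top to secretory genes: sh3 replicate 1 is red for Ms4a1 (3.79 CPM) and Blk (1.39 CPM) but blue for Igj (9.34 CPM) and Ptprc (93.2 CPM), and sh2 replicate 2 is blue in every row.

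Across the 9 tumors the 8 tested members correlated positively with one another in log2 CPM, with Pearson's r from 0.403 (Cd79b with Cd22) to 0.99 (Mzb1 with Fcrla) and a median of 0.753 over 28 pairs. These points share library depth and group, and the values are a description. The 10 other genes closest to the mean of the standardised member levels, among 14717 compared, were S1pr4 (a sphingosine-1-phosphate receptor of lymphocytes, r = 0.964), C330018D20Rik (0.959), Foxp3 (the regulatory T cell transcription factor, 0.957), Trnp1 (0.939), Cdyl2 (0.933), Etohd2 (0.929), Ccdc184 (0.924), Ubl3 (0.923), 2310001H17Rik (0.916) and Mfsd1 (0.915). Among the genes of the B cell lists, Spib, an Ets factor of B cells and plasmacytoid dendritic cells, had r = 0.91 and Igj 0.829.

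The wider B cell list held 20 genes, all in the table, of which 17 were tested. For sh3 against shControl 14 were positive and 3 negative, the median was 0.29, and 1, Faim3 (the Fc receptor for IgM, now Fcmr), had an unadjusted p under 0.05. Its levels were 0.418 ± 0.149 CPM in shControl and 1.35 ± 0.676 CPM in sh3 (SD, n = 3 each), a difference of 1.68 log2 units (SE 0.53, unadjusted p = 0.0109, FDR 0.753, edgeR). For sh2 against shControl 6 were positive and 11 negative with a median of -0.16. The 3 genes of the list with the most RNA, Cd72, Blnk and Cd180, are also expressed outside the B lineage: Cd72 reached 212 CPM and Cd180 56.2 CPM, and Blnk was highest in sh2 replicate 2 (85.1 CPM), in which 7 of the 9 members were lowest. Cxcr5, the receptor for CXCL13, and Faim3 had an unadjusted p under 0.05 for sh3 against sh2 (2.11 and 1.25 log2 units, FDR 0.673 for each). Of the defining genes, Pax5, the B lineage commitment factor, had at most 10 counts (sh3 replicate 1), and Vpreb3, of B cell precursors, had at most 2.

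The plasma cell list had 12 genes, of which 11 were tested. Against shControl, 7 were positive and 4 negative for sh3 (median 0.13) and 6 positive and 5 negative for sh2 (median 0.14), with 0 at an unadjusted p under 0.05. Its most abundant genes, Sdc1 (823 to 1390 CPM), Xbp1 (182 to 281 CPM) and Cd38 (36.1 to 72.8 CPM), are expressed in epithelium and other cells too. Slamf7, which NK cells also express, was the only one with an unadjusted p under 0.05 in any comparison (sh3 against sh2, 1.47 log2 units, FDR 0.673). For Igj itself the difference was 1.18 (SE 1.17) for sh2 and 1.03 (SE 1.17) for sh3 against shControl, each within the spread between tumors. Immunoglobulin constant region genes were not analysed here.

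The germinal center list had 8 genes, of which 5 were tested and 0 had an unadjusted p under 0.05, with medians of 0.11 (sh2) and 0.17 (sh3). Rgs13, one of its more specific members, was near the limit of counting, with 0 to 5 counts. Bcl6, S1pr2 and Il21r had the most RNA of the list, at 35.0 to 53.0, 19.3 to 36.9 and 11.8 to 42.0 CPM.

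Of the 11 ligands that attract B cells or keep them alive, 9 were tested. Against shControl 5 were positive and 4 negative for sh3 (median 0.19), and 1 was positive and 8 negative for sh2 (median -0.44). Cxcl13, the ligand of the B cell homing receptor CXCR5, ranged from 13.4 CPM in shControl replicate 2 to 160 CPM in sh3 replicate 3. It averaged 51.6 ± 33.4 CPM in shControl, 32.7 ± 13.4 CPM in sh2 and 105 ± 68.8 CPM in sh3 (SD, n = 3 each), and the difference was 1.02 log2 units (SE 0.72, FDR 0.823) for sh3 against shControl and 1.68 (SE 0.74, unadjusted p = 0.0481, FDR 0.673) for sh3 against sh2 in the edgeR fit. The tumor with the most Cxcl13 was not the one with the most Ms4a1. Cxcl12, a stromal chemokine, averaged 32.7 CPM in shControl and 13.9 CPM in sh2, without overlap (-1.23 log2 units, SE 0.44, unadjusted p = 0.0213, FDR 0.999). Ltb, a lymphotoxin subunit, was the other abundant gene of this list, at 15.0 to 54.8 CPM.

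Kinases and adaptors that carry the B cell receptor signal, most of which other leukocytes also use, gave 8 positive and 7 negative of 15 for sh3 against shControl (median 0.01) and 2 positive and 13 negative for sh2 (median -0.26). The adaptor Grb2 was the only one of them with an unadjusted p under 0.05 (sh3 against sh2, 0.32 log2 units, SE 0.12, FDR 0.673), and Lyn and Ptpn6 were, with Grb2, the most abundant.

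Genes of lymph node stroma and high endothelial venules were read in each tumor. Of 10 genes, 9 were listed and 6 tested. Madcam1, an addressin, was at or under 3 counts in all 9 tumors. Glycam1, a ligand for lymphocyte homing, had 26 counts in sh3 replicate 1 and 2 to 12 in the others, and Ccl19, a chemokine of the T cell zone, had 13 counts there and 0 to 6 in the others. The same tumor had the most Ms4a1, Blk and Cr2. Ccl21a did not follow them, with 166 counts in shControl replicate 3, 39 in shControl replicate 1 and 1 to 27 elsewhere (-3.28 log2 units for sh3 against shControl, SE 1.39, unadjusted p = 0.0431, FDR 0.753). Chst4 was high in sh2 replicate 2 (1638 counts, against 4 to 75 elsewhere), and Enpp2 ranged from 11.9 to 40.1 CPM. Both were lowest in sh3 replicate 1, at 4 counts and 11.9 CPM. The summed level of the list in that tumor was 43.0 CPM, the lowest of the sh3 group. Fut7 averaged 2.07 CPM in sh3 and 0.583 CPM in sh2 (edgeR quasi-likelihood test, unadjusted p = 0.0331, FDR 0.673). The summed level of the list was 36.6 to 100.0 CPM in shControl, 63.3 to 137 CPM in sh2 and 43.0 to 180 CPM in sh3, and its part in the member levels was not tested. With sh3 replicate 1 left out, Ms4a1 differed by 1.83 and Cd79a by 1.61 log2 units between sh3 and shControl.

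Plasmacytoid dendritic cells share several genes with B lineage cells. Of their 10 list genes, 8 were tested, 6 of them positive for sh3 (median 0.29) and 0 for sh2 (median -0.39) against shControl. Siglech, the most specific of them, had 17, 49 and 40 counts in sh3, 22, 25 and 23 in shControl and 21, 8 and 22 in sh2 (sh3 against sh2, 1.17 log2 units, unadjusted p = 0.0437, FDR 0.673). It was low in sh3 replicate 1, where Ms4a1 was highest. Cox6a2 had 568 counts in shControl replicate 3 and 13 to 164 elsewhere, with an unadjusted p of 0.022 for sh2 against shControl, and Bst2, Irf8 and Tcf4 were the abundant genes of the list (41.4 to 339 CPM). The summed level was 410 to 442 CPM in shControl, 300 to 421 CPM in sh2 and 298 to 644 CPM in sh3, and its part was not tested.

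Lists of other leukocytes were read for comparison. T cell genes were positive in 11 of 12 for sh3 (median 0.47) and 0 of 12 for sh2 (median -0.50), NK cell genes in 8 of 8 (median 0.51) and 1 of 8 (median -0.60), and macrophage and monocyte genes in 7 of 10 (median 0.25) and 2 of 10 (median -0.25), against the same 3 controls. The summed T cell level was 240 to 282 CPM in shControl, 110 to 264 CPM in sh2 and 162 to 343 CPM in sh3. Neutrophil genes were positive in 1 of 6 tested for sh3 (median -0.36) and mast cell genes in 1 of 5 (median -0.91). Their genes with an unadjusted p under 0.05 were Cd2, Cd3d, Cd5, Gzma, Klrb1c, Ncr1, Ptprcap and Cd53 in the positive direction and Cxcr2 in the negative one for sh3 against sh2, and the mast cell genes Cma1, Cpa3 and Mcpt4 in the negative direction for sh2 against shControl, with Mcpt4 also for sh3. The most abundant genes of these lists were Cd4, Cd8a and Thy1 (T cell), Klrk1, Eomes and Nkg7 (NK cell), Lyz2, C1qa and C1qb (macrophage), S100a8, S100a9 and Csf3r (neutrophil), Tpsb2, Cma1 and Kit (mast cell) and Ptprc, Laptm5 and Itgb2 (pan-leukocyte). The carcinoma list, led by the keratins Krt8, Krt18 and Krt19, summed to 2790 to 4090 CPM in shControl, 3120 to 6540 CPM in sh2 and 3310 to 3560 CPM in sh3. No gene of these lists passed the FDR threshold in the 4 comparisons. The median of the 8 members for sh3, 1.25, was above that of each of these lists, but the members were chosen with earlier results known and the lists differ in how much RNA their genes have. For sh2 the median was 0.35 over the members (0.04 without sh2 replicate 3) and 0.34 over the neutrophil list, and negative for the T cell, NK cell, macrophage, mast cell and pan-leukocyte lists. The wider B cell list did not share the high sh3 median of the members. Its median was 0.29 for sh3, below the T cell and NK cell lists, and -0.16 for sh2. The plasma cell list had medians of 0.13 for sh3 and 0.14 for sh2.

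**Figure D4:**
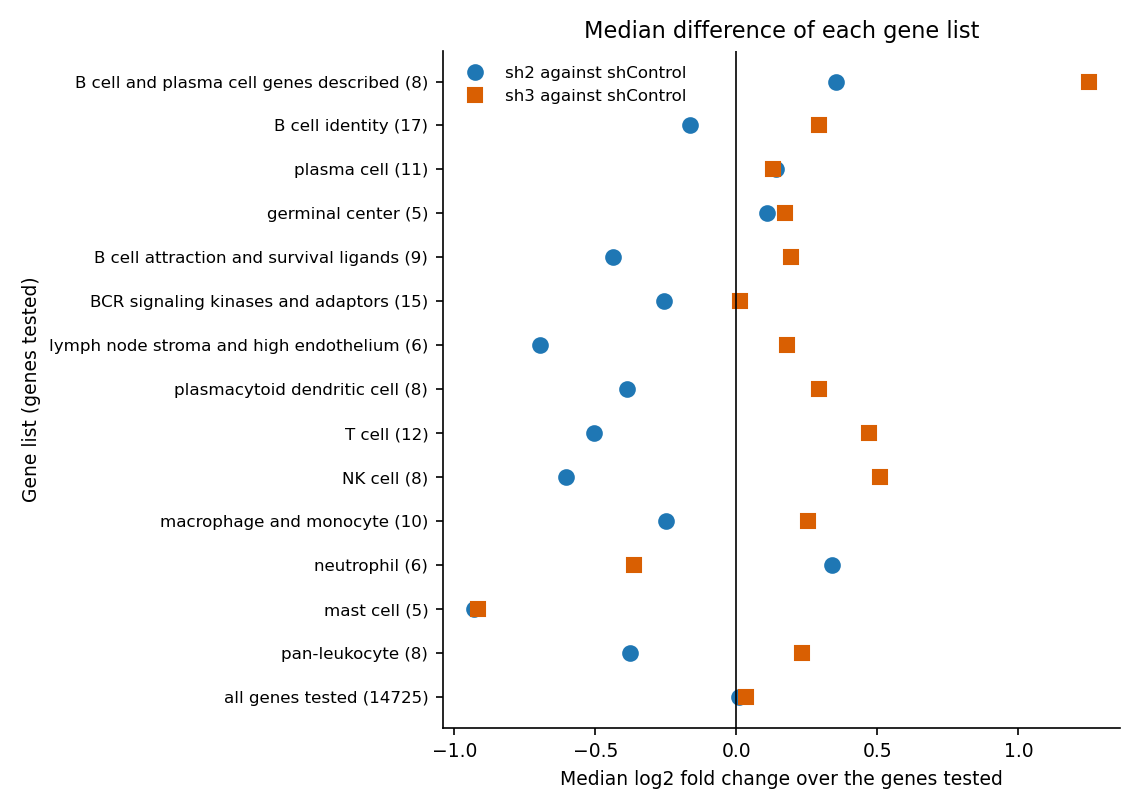
Median fitted log2 fold change (x axis) over the tested genes of each list (y axis, number of genes tested in parentheses) for sh2 and sh3 against the same 3 shControl tumors; no error is drawn, since genes are not replicates. The 8 members have the highest median for sh3 (1.25) and a positive one for sh2 (0.35), and the median of all 14725 genes is 0.03 and 0.01.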

How the data were processed

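Tumor RNA was sequenced as stranded poly-A libraries. According to the study's methods and the submitters' processing notes, the authors aligned reads to mm10 with STAR 2.5.3a, and featureCounts gave the reads of each gene; the strand setting is not given in the sources used here. The deposited table holds raw counts, used for every test, and the authors' TPM values (transcripts per 1000000, corrected for gene length), used only to compare levels between genes. Its CPM columns and the authors' own comparison columns (log fold change, mean log CPM, likelihood ratio, p-value and FDR) were not used. No column of another sample was found.

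Samples were grouped by their labels. Counts were analysed with edgeR 4.0.16 in R 4.3.3: genes passing filterByExpr by group (14725 of 19481), TMM normalisation, robust quasi-likelihood fit of all 9 tumors with group as the only term, Benjamini-Hochberg adjustment over all genes tested. CPM values are counts scaled by the TMM-adjusted library size. Single members were also compared by an exact two-sided permutation of tumors on log2(CPM + 0.1), which cannot give less than 0.1 for 3 tumors against 3 or 0.0119 for 6 against 3. The fit was tested on simulated counts in which 200 genes, drawn at random from those tested, were changed between sh3 and shControl. At an FDR under 0.05 it recovered 11% of changes of 1 log2 unit, 77% of 2 log2 units and 88.5% of 3. Most differences of the size of 1 log2 unit would therefore be missed. Recovery at the low counts of the members was not read separately. The labels number biological replicates but do not name the mouse of each tumor, so p-values measure the spread between these tumors. Same-numbered tumors of different groups did not deviate together (mean r = -0.0991 over 9 pairs), so the numbers were not taken as pairs. No 2 tumors had identical counts.

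Members and gene lists were chosen with earlier results of these data known. Named genes are all members, list genes with an unadjusted p under 0.05 in any comparison, the 3 most abundant of each list, genes of the lymph node and plasmacytoid dendritic cell lists at or under 3 counts in all tumors, and the 10 genes most like the members; Igj, Pax5, Vpreb3, Rgs13, Spib, Bank1, Glycam1, Ccl19, Ptprc, Cd3e and C1qa were added after their values were seen. Some list genes are not reported here by name. Intervals are not given for counts, and a count of 3 was taken as the floor. Alternatives were another scaling (DESeq2 1.42.0 size factors), the DESeq2 Wald test, edgeR's likelihood ratio test, other filters, fits of the compared groups alone, a replicate block and leaving out each tumor.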

Additional observations from a re-analysis of the deposited data

Results flagged for a closer look

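Groups of 3 tumors were not tested for outlying tumors. The tested genes of all lists, those of other cell types included, were searched with 1 rule. By it, 4 genes were picked out because every sh2 tumor lay on one side of the control mean and every sh3 tumor on the other, in log2 CPM. The share of all genes tested that meets this rule was not computed, so the 4 genes are not a result about B cells. Cxcr5, the B cell homing receptor for CXCL13, had 21, 14 and 25 counts in shControl, 19, 0 and 9 in sh2, and 26, 44 and 41 in sh3, and differed by 2.11 log2 units between sh3 and sh2. The receptor Fcrl1 had 26, 36 and 38 counts in shControl, 32, 11 and 31 in sh2, and 32, 54 and 46 in sh3 (difference 0.96). The lymphotoxin gene Lta had 27, 57 and 42 counts in shControl, 32, 19 and 38 in sh2, and 55, 38 and 47 in sh3 (difference 0.75), and Grb2 had a difference of 0.32. In the direct comparison of sh3 with sh2 by edgeR's quasi-likelihood test, the FDR of these differences was 0.673, 0.673, 0.675 and 0.673, so none passed the threshold. None of the 9 members was picked out in this way.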

How the results depend on the processing

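Depth limits these genes: members had 0 to 239 counts per tumor. In edgeR's quasi-likelihood test 0 genes had an FDR under 0.05 in any comparison, also with each tumor left out in turn (0 to 0 in all 4). The DESeq2 Wald test called 2 genes for sh2, 41 for sh3 and 9 for the mean of both against shControl, and 48 for sh3 against sh2, and edgeR's likelihood ratio test called 0, 8, 8 and 14; the cause was not tested, and no member was among the calls of any alternative. Of 615 alternative values 594 were counted as kept, 14 as reversed and 7 as moved. A fold change was kept when its direction and call stayed, and a count of calls when it stayed the same. A median was kept when it lay within 0.853 log2 units of the main value, whatever its sign. That distance is the pooled SD over tumors of the mean member log2 CPM. The sh2 median of -0.19 given below was therefore counted as kept.

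The replicate numbers did not pair the tumors; with the replicate block, the count of calls stayed at 0 and Blk, for the mean of both hairpins, was -0.0755 against 0.0575 without the block. Other values close to 0 changed sign: Cd79b for the mean of both hairpins was 0.0101 with sh2 and sh3 merged into 1 group, and -0.25 to 0.17 with each tumor left out; Blk for that mean was -0.24 to 0.52. For sh2 against shControl, Cd22 ranged from -0.35 to 0.40 and Fcrla from -0.12 to 0.65. Mzb1 for sh3 against sh2 was -0.51 without sh3 replicate 2 and up to 1.08 otherwise. A minimum of 10 counts in every tumor left only Cd22 and Cd79b among the members, with a median of -0.19 for sh2 and 0.65 for sh3 against shControl. For sh3 against shControl, the 8 differences were positive under every alternative, the median ranging from 0.76 to 1.5 with each tumor left out. The lowest FDR of a member in this comparison under any alternative was 0.362 (Cd79a).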
